A study of Mus musculus with 8 samples.

Results

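The genes described here are the core of the PI3K, AKT and mTOR pathway in brain endothelial cells (ECs). They are *Pik3ca*, *Pik3cb*, *Pik3r1*, *Pik3r3*, *Akt1*, *Akt2*, *Mtor* and *Tsc2*, chosen by name as a set of 8 among the 49315 genes counted. All 8 were among the 16887 genes that passed a filter on low counts and were tested. RNA was sequenced from brain ECs of 4 Mutant and 4 Wild type mouse pups at postnatal day 9, and each library came from 1 pup. Mutant pups carried R26 GT-Map2k1-GFP/+ and Tg-Cdh5CreER+/-, so that tamoxifen at postnatal day 1 switched on an activated MEK1 (Map2k1 K57N) in cells that use the *Cdh5* promoter. Wild type pups came from the same litters and had the same tamoxifen, and both lines were kept on a C57BL/6J background. The labels give the controls as wild type, while a supplementary title of the study names the *Cre* line as the control, so whether they carried *Cre* is unsettled. The mutant cDNA was expressed from the Rosa locus under a strong CAG promoter, only a part of the ECs was recombined, and no group expressed unmutated *Map2k1* from that locus. Cells were caught on beads carrying an antibody to the endothelial surface protein CD31.

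Class I PI3K is a pair of proteins, a catalytic subunit (p110) that phosphorylates a membrane lipid and a regulatory subunit (p85 or p55) that stabilises the catalytic subunit, holds it inactive and brings it to activated receptors. The lipid product recruits AKT, a kinase that among other actions inhibits the TSC complex, and TSC in turn restrains the kinase mTOR, which promotes protein synthesis and growth. In endothelium this pathway lies downstream of VEGF and angiopoietin receptors, supports survival and vessel growth, and activating mutations of its catalytic subunit cause venous malformations. MEK1 belongs to the parallel RAS and ERK cascade, and RNA levels say nothing of phosphorylation in either pathway.

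Between 24833373 and 34196955 reads per library were counted on genes. *Map2k1* ranged from 12660 to 18687 normalized counts in the Mutant libraries and from 1502 to 1758 in the Wild type libraries, without overlap (log2 fold change 3.18, SE 0.13). Normalized counts are reads scaled by TMM to the mean library size. The 10 EC markers summed to 364578 to 442399 normalized counts in Mutant and 343058 to 415637 in Wild type libraries. These sums hold changes in both directions, with 3 of the 10 higher and 3 lower at an edgeR adjusted p under 0.05. *Cdh5* (log2 fold change 1.11), *Emcn* (0.82) and *Pecam1* (0.53) were higher, and *Kdr* (-0.59), *Cldn5* (-0.47) and *Tek* (-0.44) were lower. Summed markers of red blood cells (2575 to 8452 against 15724 to 27285, 6 of 6 lower) and of the oligodendrocyte lineage (2088 to 3420 against 3766 to 9376, 7 of 8 lower) were lower in Mutant libraries, each with an exact two-sided permutation p of 0.0286, the smallest that 4 against 4 allows, and 0.0857 after adjustment over 9 marker lists. Neuron markers summed to 936 to 1537 in Mutant and 1463 to 4702 in Wild type libraries (7 of 11 tested lower and 1 higher, exact permutation p = 0.0571), with Wild type 1 and 3 the highest. Astrocyte markers summed to 20259 on average in Mutant and 12253 in Wild type libraries (exact permutation p = 0.0286), but with *Gja1*, which held most of those counts, left out the averages were 846 and 1121 (exact permutation p = 0.457). Microglia markers varied most within a condition, from 2417 to 9519 in Mutant and from 3038 to 12159 in Wild type libraries. Fibroblast markers averaged 35758 in Mutant and 31708 in Wild type libraries (2 of 6 higher and 2 lower, exact permutation p = 0.171). Those of pericytes and smooth muscle averaged 25218 and 28270 (3 of 9 higher and 0 lower, exact permutation p = 0.629). No marker was at 0 in every library. Every list is much smaller than that of the ECs, and the part of these cells in the results below was not tested beyond the libraries left out.

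Of the 8 core genes, 5 differed between Mutant and Wild type ECs at an adjusted p under 0.05 by edgeR's quasi-likelihood test, a count to be read against the 44.4% of all genes tested that did. *Pik3r1*, *Akt1* and *Pik3ca* were higher (3 of 8, against 21.5% of all genes), and *Pik3r3* and *Tsc2* were lower (2 of 8, against 22.9%). *Pik3cb*, *Akt2* and *Mtor* did not pass the test. None of the 8 changed by more than 2-fold (0 by edgeR and 0 by DESeq2, with 5 at an unadjusted p under 0.05 by edgeR), against 14.0% of all genes that also passed that limit, 5.90% higher and 8.05% lower. In these 5 genes, and in no other of the 8, each Mutant library lay on one side of each Wild type library. That held for 42.5% of all genes tested, with 20.6% above and 21.9% below. In bulk RNA a lower value from fewer cells of a type cannot be told apart from less RNA per cell. Since only a part of the ECs was recombined, each fold is an average over recombined and other cells. The fold within recombined cells was not measured.

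**Figure D1:**
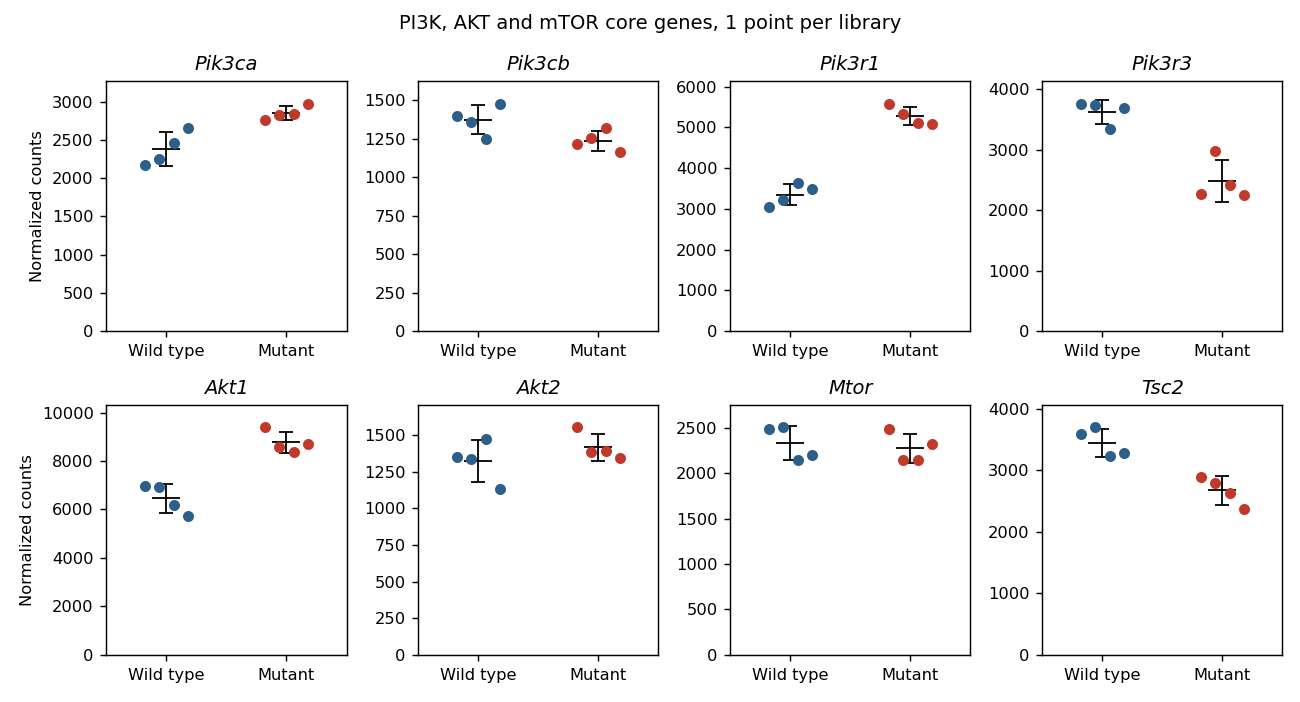
Normalized counts (vertical axes, from 0) of each core gene in the 4 Wild type (blue) and 4 Mutant (red) libraries, with the mean and SD as a bar and whiskers. The Mutant points of *Pik3ca*, *Pik3r1* and *Akt1* lie above all Wild type points, those of *Pik3r3* and *Tsc2* lie below, and the points of *Pik3cb*, *Akt2* and *Mtor* overlap.

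*Pik3ca* encodes the catalytic subunit p110 alpha, the isoform that signals from receptor tyrosine kinases in ECs (GRCm38 chromosome 3, 32397671 to 32468486, plus strand). Its normalized counts in Mutant libraries 1 to 4 were 2762, 2827, 2833 and 2972, and in Wild type libraries 1 to 4 they were 2169, 2247, 2465 and 2654. The Mutant libraries lay close together and just above the highest Wild type library. The means were 2849 ± 88.3 and 2384 ± 219 (SD, n = 4 each), a 1.20-fold rise (log2 fold change 0.26, SE 0.07, 95% interval 0.09 to 0.42, edgeR adjusted p = 0.0172). This call was the least firm of the 5. Without Wild type 2 the log2 fold change was 0.23 with an adjusted p of 0.0584, and without Wild type 1 and 3, the libraries richest in neuron markers, it was 0.24 with an adjusted p of 0.0945. Sample descriptions share leading digits that split the libraries into one set of 2 Mutant and 2 Wild type and a pair of sets with 1 of each. Wild type pups were matched to Mutant pups within litters, but whether these digits mark the litters is not stated. Within these sets the log2 difference of *Pik3ca* was 0.34, 0.20 and 0.16.

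*Pik3cb* encodes p110 beta, the isoform that also answers G protein-coupled receptors (chromosome 9, 99036654 to 99140621, minus strand). Mutant libraries held 1214, 1255, 1320 and 1166 normalized counts and Wild type libraries 1401, 1362, 1251 and 1478. The groups overlapped, with Wild type 3 below the highest pair of Mutant libraries. The means of 1239 ± 65.2 and 1373 ± 94.3 (SD, n = 4) gave a log2 fold change of -0.15 (SE 0.07, 95% interval -0.31 to 0.02, edgeR adjusted p = 0.128). With upper quartile scaling, which shifts the median of all genes by -0.06, it was -0.21 and passed the test (adjusted p = 0.0313). Within the sets of shared digits the values were -0.16, 0.08 and -0.34.

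*Pik3r1* encodes p85 alpha and its shorter forms, the main regulatory subunits, and had the largest change of the 8 (chromosome 13, 101680563 to 101768217, minus strand). It stood at 5580, 5320, 5116 and 5089 normalized counts in the Mutant libraries and at 3057, 3225, 3632 and 3483 in the Wild type libraries. All Mutant libraries were far above the Wild type libraries, and the gap between the groups exceeded the range of either. The means were 5276 ± 227 and 3349 ± 257 (SD, n = 4), a 1.58-fold rise (log2 fold change 0.66, SE 0.07, 95% interval 0.49 to 0.82, edgeR adjusted p = 7.8e-05). Over 19 alternative settings the log2 fold change stayed between 0.59 and 0.72 and the call held, and within the sets of shared digits it was 0.80, 0.49 and 0.55.

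*Pik3r3* encodes p55 gamma, a shorter regulatory subunit of the same family (chromosome 4, 116221618 to 116303056, plus strand). Its counts were 2261, 2984, 2415 and 2245 in Mutant libraries and 3759, 3737, 3334 and 3684 in Wild type libraries. Mutant 2 was nearest to the Wild type values but stayed below all of them. The means of 2476 ± 347 and 3628 ± 199 (SD, n = 4) correspond to a fall to 0.682 of the Wild type level (log2 fold change -0.55, SE 0.10, 95% interval -0.76 to -0.34, edgeR adjusted p = 0.00109). The range over 19 alternatives was -0.65 to -0.48, and within the sets of shared digits the values were -0.52, -0.47 and -0.71. In the reference annotation 24.3% of the exonic bases of *Pik3r3* also belong to Gm49337, which had 0 counts in every library, and how reads in shared bases were counted is not stated.

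*Pik3r1* thus rose and *Pik3r3* fell, and the gap between them per length narrowed. Per length, in CPM per kilobase (counts scaled to library size and exonic length), Wild type ECs held *Pik3r3* at 23.1 ± 1.27 and *Pik3r1* at 11.2 ± 0.862, and Mutant ECs held *Pik3r1* at 17.7 ± 0.762 and *Pik3r3* at 15.8 ± 2.21 (SD, n = 4). Among the 3 regulatory subunits *Pik3r1*, *Pik3r2* and *Pik3r3*, the share of *Pik3r1* was 48.9%, 42.6%, 45.6% and 47.8% in Mutant libraries and 24.4%, 26.2%, 29.5% and 28.8% in Wild type libraries. The share of *Pik3r3* was 37.7%, 45.4%, 40.9% and 40.1% in Mutant libraries and 56.9%, 57.7%, 51.4% and 58.0% in Wild type libraries. Per length, *Pik3r3* was above *Pik3r1* in every Wild type library and in Mutant 2. *Pik3r1* was above *Pik3r3* in Mutant 1, 3 and 4, with overlapping ranges among the Mutant libraries. This order and the shares rest on exonic length, of which 24.3% is shared with Gm49337 for *Pik3r3*. Gm49337 lies on the same strand and had 0 counts, and how shared reads were counted is not stated. If they were left out, *Pik3r3* is understated per length in every library. In Mutant 1, 3 and 4 *Pik3r3* could then be above *Pik3r1*. In normalized counts, not scaled to length, *Pik3r1* exceeded *Pik3r3* in Mutant 2 (5320 against 2984) and in Wild type 3 (3632 against 3334). The share of *Pik3r2* was 12.8% ± 0.764 in Mutant and 16.8% ± 2.72 in Wild type libraries (SD, n = 4). The groups did not overlap for the shares of *Pik3r1* and *Pik3r3* and overlapped for that of *Pik3r2*. Among the 4 catalytic subunits the share of *Pik3ca* was 52.0% ± 1.87 in Mutant and 45.9% ± 1.99 in Wild type libraries, and that of *Pik3cb* was 28.5% ± 1.05 and 33.5% ± 2.93, without overlap in either case, although Mutant 3 and Wild type 3 both had a *Pik3cb* share of 29.5%. These shares are descriptions of the same counts and were given no test.

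**Figure D2:**
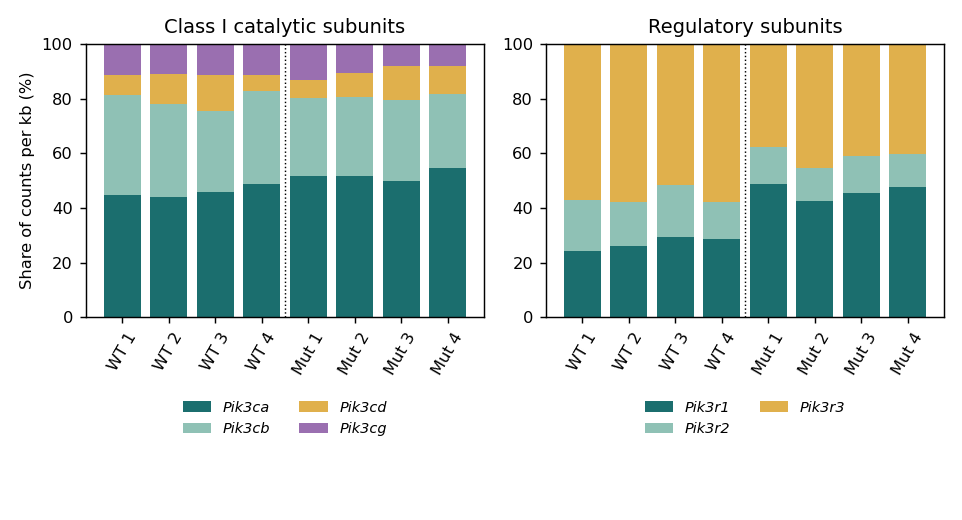
Stacked bars give each subunit's share (percent, vertical axis) of counts per kilobase within its family, 1 bar per library, with Wild type (WT) at the left and Mutant (Mut) at the right of the dotted line. The *Pik3r1* part of the right panel spans 42.6% to 48.9% in Mutant and 24.4% to 29.5% in Wild type libraries, and the *Pik3ca* part of the left panel averages 52.0% and 45.9%.

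The promoters of *Pik3r1*, *Pik3ca* and *Tsc2* are shown because ERK acts in the nucleus largely through ETS and AP-1 factors. These 3 genes are the member that rose most, a member that rose and one that fell. *Akt1* rose more than *Pik3ca*, and *Pik3r3* fell more than *Tsc2*, but their promoters are not shown. The RefSeq bases (GRCm38.p6) are the 250 before the annotated start, 5′ to 3′ on the strand of the gene. Capitals mark matches to an ETS (CCGGAAG), AP-1 (TGANTCA), FOXO (TGTTTAC) or CRE (TGACGTCA) motif on either strand. Only these letters were searched, so looser forms, such as GGAA alone for ETS, are not marked.
Pik3r1, chr13:101768218-101768467, minus strand: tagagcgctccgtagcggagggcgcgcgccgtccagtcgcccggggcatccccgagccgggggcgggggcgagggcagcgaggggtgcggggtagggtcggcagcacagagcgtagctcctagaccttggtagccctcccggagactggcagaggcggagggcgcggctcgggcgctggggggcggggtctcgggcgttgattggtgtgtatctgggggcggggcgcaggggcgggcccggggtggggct
Pik3ca, chr3:32396815-32397064, plus strand: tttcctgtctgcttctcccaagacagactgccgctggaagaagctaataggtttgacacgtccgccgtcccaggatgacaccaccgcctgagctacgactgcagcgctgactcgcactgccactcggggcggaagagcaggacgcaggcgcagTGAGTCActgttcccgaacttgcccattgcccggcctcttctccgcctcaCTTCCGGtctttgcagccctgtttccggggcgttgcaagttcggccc
Tsc2, chr17:24632628-24632877, minus strand: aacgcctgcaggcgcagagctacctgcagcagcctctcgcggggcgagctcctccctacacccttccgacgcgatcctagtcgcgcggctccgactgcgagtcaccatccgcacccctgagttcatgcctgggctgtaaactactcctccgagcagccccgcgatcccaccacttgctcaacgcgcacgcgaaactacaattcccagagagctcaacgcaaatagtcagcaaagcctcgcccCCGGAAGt
The *Pik3r1* stretch holds none of the 4 motifs in the letters searched. Of its window of 300 bases (250 before the start and 50 after it) 75.7% is G or C, against a median of 52.7% over 32851 mouse promoter windows. RefSeq lists a second *Pik3r1* start 75587 bases further into the gene, whose window also holds no match. The *Pik3ca* stretch has an AP-1 match at -97 and an ETS match at -47, counted from the start, which lies 606 bases before the first base of the gene in the count files. *Tsc2* has an ETS match at -8 and another just past the start. The ETS letters occur in 8.86% of all windows, those of AP-1 in 7.81%, FOXO in 3.65% and CRE in 1.79%. A match in these letters is not evidence of binding, and its absence says nothing of the factor. Of the other members, *Akt1* has a FOXO match at -161 and *Mtor*, which was not called, an ETS match at -237 in the window nearest their start. The windows of *Pik3r3*, the member that fell most, and those of *Pik3cb* and *Akt2* hold no match.

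*Akt1* is the main AKT kinase of endothelium, where it phosphorylates endothelial nitric oxide synthase and FOXO factors (chromosome 12, 112653821 to 112674884, minus strand). It was the most abundant member, at 72.3 ± 3.56 CPM per kilobase in Mutant and 53.3 ± 4.89 in Wild type ECs (SD, n = 4). Its normalized counts were 9383, 8580, 8389 and 8719 in Mutant libraries and 6983, 6915, 6197 and 5748 in Wild type libraries. The groups were well apart, with Wild type 3 and 4 the lowest. The means of 8768 ± 432 and 6461 ± 593 (SD, n = 4) gave a 1.36-fold rise (log2 fold change 0.44, SE 0.08, 95% interval 0.26 to 0.62, edgeR adjusted p = 0.00149). The rise was 0.37, 0.44 and 0.60 on the log2 scale within the sets of shared digits and 0.38 to 0.50 over 19 alternatives.

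*Akt2*, the isoform best known for insulin-stimulated glucose uptake, lies on chromosome 7 (27591552 to 27640826, plus strand). Its counts were 1551, 1383, 1394 and 1341 in Mutant libraries and 1349, 1333, 1475 and 1133 in Wild type libraries. The groups overlapped, with Wild type 3 above 3 of the Mutant libraries. The log2 fold change was 0.10 (SE 0.09, 95% interval -0.10 to 0.30, edgeR adjusted p = 0.393), with means of 1417 ± 92.1 and 1322 ± 141 (SD, n = 4). Within the sets of shared digits it was 0.13, -0.08 and 0.24. Whether *Akt1* changed by more than *Akt2* was not tested as a difference of folds.

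*Mtor*, the kinase shared by mTOR complexes 1 and 2, gave no evidence of a change (chromosome 4, 148448611 to 148557683, plus strand). Mutant libraries held 2483, 2141, 2150 and 2326 normalized counts and Wild type libraries 2488, 2504, 2148 and 2206. Both groups covered almost the same range. The log2 fold change of -0.04 had a 95% interval of -0.21 to 0.14 (SE 0.08, edgeR adjusted p = 0.718), with means of 2275 ± 163 and 2337 ± 186 (SD, n = 4), and its sign was not stable, since it was 0.012 without Wild type 1. Its values within the sets of shared digits were -0.11, 0.00113 and 0.08.

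*Tsc2* encodes tuberin, the subunit of the TSC complex that switches off the mTOR activator RHEB (chromosome 17, 24595937 to 24632629, minus strand). Its counts were 2896, 2797, 2627 and 2371 in Mutant libraries and 3583, 3696, 3238 and 3273 in Wild type libraries. Each Mutant library lay below each Wild type library, and Mutant 4 was the lowest. The means were 2673 ± 230 and 3448 ± 227 (SD, n = 4), a fall to 0.775 of the Wild type level (log2 fold change -0.37, SE 0.08, 95% interval -0.54 to -0.19, edgeR adjusted p = 0.00383). The range was -0.43 to -0.29 over 19 alternatives, and the values within the sets of shared digits were -0.35, -0.30 and -0.47. *Pkd1* on the opposite strand shares 578 bases, 9.60% of the exonic bases of *Tsc2*, and since the use of strand in counting is not stated, reads in them cannot be told apart. *Tsc1*, which encodes the partner that stabilises tuberin, was not called (-0.14), and the log2 ratio of *Tsc2* to *Tsc1* per length overlapped between Mutant (2.22 ± 0.299) and Wild type (2.44 ± 0.197) libraries.

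**Figure D3:**
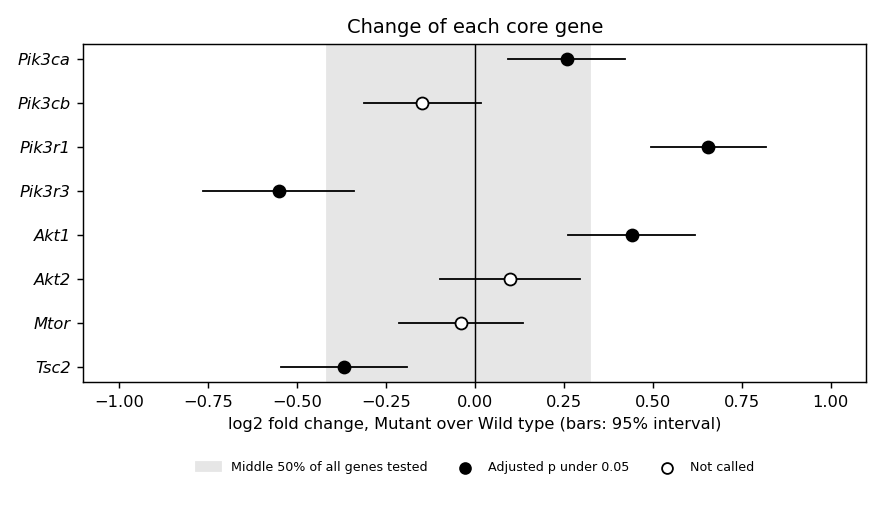
Log2 fold change of each core gene (horizontal axis, Mutant over Wild type) with its 95% interval, filled where the edgeR adjusted p is under 0.05. The grey band runs from the lower to the upper quartile of all genes tested, -0.42 to 0.32, and *Pik3r1*, *Akt1* and *Pik3r3* lie outside it.

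Ordered by level per length, *Akt1* came first in both conditions and its range did not touch that of the next gene. In Wild type ECs *Pik3r3*, *Tsc2* (19.4 ± 1.27) and *Pik3r1* followed, each apart from its neighbours, then *Pik3ca* (8.86 ± 0.815) and *Mtor* (7.81 ± 0.621), which overlapped, and last *Pik3cb* (6.45 ± 0.443) and *Akt2* (6.26 ± 0.669 CPM per kilobase, SD, n = 4), which overlapped too. In Mutant ECs *Pik3r1*, *Pik3r3* and *Tsc2* (15.0 ± 1.29) followed *Akt1* with overlapping ranges between neighbours, then *Pik3ca* (10.6 ± 0.328), set apart from both neighbours. The place of *Pik3r3* depends on how reads in its shared bases were counted. *Mtor* (7.60 ± 0.544) and *Akt2* (6.71 ± 0.436) overlapped, and *Pik3cb* (5.82 ± 0.306) was the lowest. All 8 were well expressed, the lowest, *Pik3cb*, having a mean level above that of 72.8% of the genes tested.

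For each member that was called, the genes of most similar profile were taken by Pearson's r of log2 CPM over the 8 libraries. This is a description in which both the condition and the spread within a condition enter r. They were *Gspt1* (r = 0.996), *Gm6634* (0.993) and *Nab1* (0.993) for *Pik3r1*, and *Manf* (0.996), *Ten1* (0.996) and *Crlf2* (0.995) for *Akt1*. For *Pik3ca* they were *Mtf2* (0.991), *Adamts9* (0.991) and *Erbin* (0.989). The lower members were matched by *Bhlhb9* (0.995), *Slco1a5* (0.995) and *Gm13068* (0.994) for *Pik3r3*, and by *Ptgfrn* (0.995), *Cabin1* (0.994) and *Kdelc2* (0.994) for *Tsc2*. These are the highest values for each member over all genes tested outside the 8, so that high r is a property of the choice. For these same chosen genes, r of the deviations from the condition means ran from 0.873 (*Nab1* with *Pik3r1*) to 0.992 (*Manf* with *Akt1*).

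The other genes of the pathway were taken from 12 lists of known subunits, regulators, substrates and target genes, 135 genes in all. Of the 133 tested, 32 rose and 38 fell, which is 52.6% against 44.4% of all genes, with a median log2 fold change of -0.04 against -0.02 over all genes. Without Wild type 1 and 3 these counts were 21 and 24, and 2326 rather than 3873 of all genes fell. Of the genes named below, *Pik3r2*, *Uvrag*, *Gab2*, *Inppl1*, *Inpp4a*, *Deptor*, *Telo2*, *Tti1*, *Rragb*, *Castor2*, *Rraga*, *Mdm2*, *Foxo1* and *Slc7a11* were not called in that fit (adjusted p from 0.0514 to 0.258). The 44.4% of all genes also covers genes of low counts. With all libraries and only genes with a mean of at least 1 CPM, 7046 of 14045 were called. By list, with all libraries and all genes tested, the share called was lowest for amino acid sensing (32.0%) and for TSC and RHEB (33.3%). The other class I PI3K subunits (40.0%) and the phosphoinositide phosphatases (42.9%) were also below the 44.4% of all genes. Every other list was above it, from 45.5% for the mTOR complexes to 83.3% for genes downstream of mTOR complex 1. Log2 fold changes in the next paragraphs are Mutant over Wild type.

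**Figure D4:**
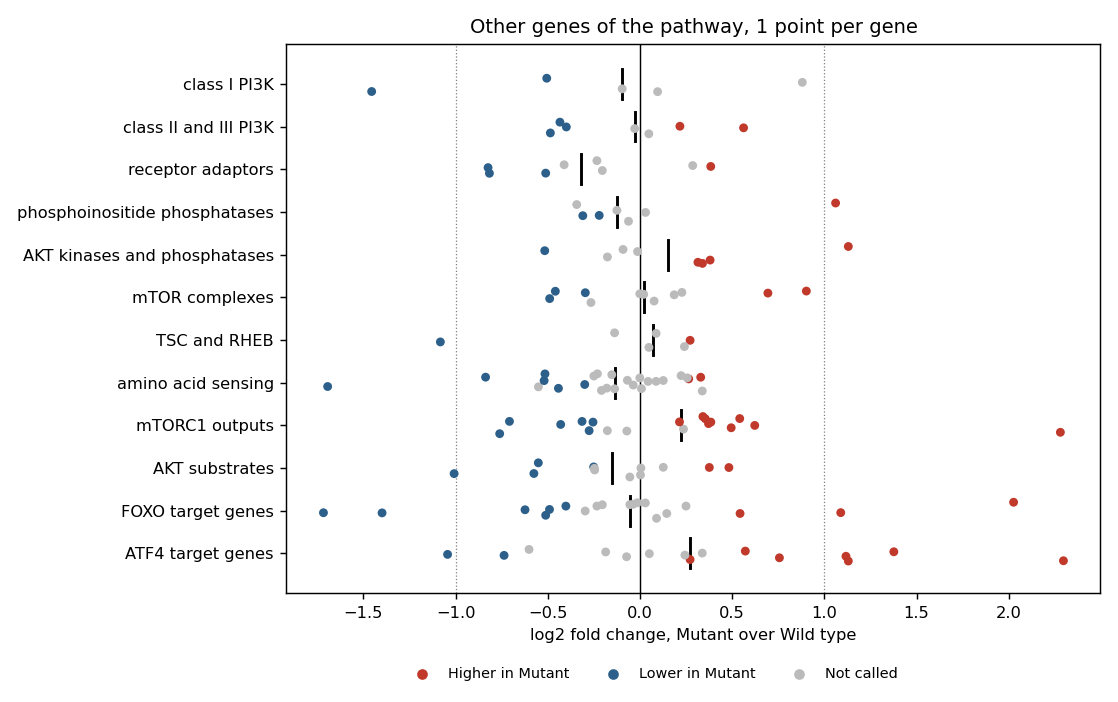
Log2 fold change (horizontal axis, Mutant over Wild type) of each tested gene of 12 pathway lists, 1 point per gene, red or blue where the edgeR adjusted p is under 0.05, with a black tick at each list's median and dotted lines at 2-fold. Medians run from -0.32 for receptor adaptors to 0.27 for ATF4 target genes, and most lists hold genes that rose beside genes that fell.

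Of the other 5 class I PI3K subunits, 2 fell and 0 rose by edgeR at the threshold, with a median of -0.10. *Pik3r6*, a regulatory subunit of p110 gamma that answers G protein-coupled receptors, fell most (-1.46, SE 0.13, edgeR adjusted p = 2.12e-05), from 1818 to 2192 normalized counts in Wild type libraries to 554 to 853 in Mutant libraries. The p85 beta gene *Pik3r2* fell by 0.51 on the log2 scale (-0.51, adjusted p = 0.00846), but without Wild type 1 and 3 the value was -0.27 with an adjusted p of 0.158. *Pik3r5* (0.88) was not called in this fit. With the replicate number or the shared digits as a block, or without Wild type 3, 1 gene of the list passed as higher. Among class II and III genes, which make other phosphoinositides for endocytosis and autophagy, 2 of 7 tested rose and 3 fell (median -0.03). *Pik3c2a*, a class II kinase needed for endothelial receptor trafficking, rose (0.56, adjusted p = 0.00151), as did *Uvrag* (0.22, adjusted p = 0.011, but 0.0547 with no filter on low counts), whereas the class III kinase gene *Pik3c3* (-0.49) and its partner *Pik3r4* (-0.43) fell.

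Upstream of PI3K, 1 of 8 receptor, adaptor and PI3K inhibitor genes rose and 3 fell (median -0.32). *Igf1r*, the receptor for insulin-like growth factors, fell from 17927 to 19218 normalized counts in Wild type to 7437 to 12188 in Mutant libraries (-0.82, SE 0.13, adjusted p = 7.29e-04). *Gab1*, a docking protein that binds p85, fell by a similar amount (-0.82), and its relative *Gab2* rose (0.38). *Insr* (-0.20), *Irs1* (-0.41) and *Irs2* (-0.23) were not called. The PI3K inhibitor gene *Pik3ip1* was the other that fell (-0.51, edgeR adjusted p = 0.0424), with overlapping groups. Its call was not checked under the alternatives. Of 7 phosphatases that remove phosphates from phosphoinositides, 1 rose and 2 fell (median -0.13). *Inpp5d*, which encodes SHIP1 and is best known in blood cells, rose past 2-fold (1.06, adjusted p = 1.94e-04), with 3893 to 5272 normalized counts in Mutant and 1773 to 2554 in Wild type libraries. *Inppl1* (-0.31) and *Inpp4a* (-0.22) fell, but *Inppl1* was not called without Wild type 1 (-0.23, adjusted p = 0.0542), and *Inpp4a* was not called without Mutant 2, 3 or 4 or without Wild type 1, 2 or 4 (adjusted p from 0.0652 to 0.158). With all 8 libraries *Inpp4a* also missed the threshold by DESeq2 (adjusted p = 0.0885), with RLE factors (0.0655) and with no filter on low counts (0.124).

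Around AKT, 4 of 8 kinases, chaperones, scaffolds and phosphatases rose and 1 fell (median 0.15). The activating kinase gene *Pdpk1* (0.34) and the genes of the kinase chaperone *Cdc37* (0.38) and the phosphatase subunit *Ppp2r2a* (0.31) rose. The call of *Pdpk1* was not checked under the alternatives. *Trib3*, a pseudokinase that binds AKT, rose past 2-fold (1.13, SE 0.24, adjusted p = 0.00375) from a low level of 71 to 78 normalized counts in Wild type libraries. *Phlpp1*, a phosphatase that inactivates AKT, fell (-0.52, adjusted p = 3.24e-04). Among 12 AKT substrates 2 rose and 4 fell (median -0.15). *Foxo4* fell past 2-fold (-1.01, adjusted p = 3.24e-05), and the endothelial nitric oxide synthase gene *Nos3* (-0.55) and *Pfkfb2* (-0.58) fell, where 32.3% and 19.5% of exonic bases are shared with other genes. *Mdm2* (0.38) and *Foxo1* (0.48) rose, although Wild type 4 overlapped the Mutant libraries for *Foxo1*.

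Of the 11 genes that accompany *Mtor* in its complexes or their assembly, 2 rose and 3 fell (median 0.02). *Prr5*, a subunit of complex 2, rose (0.90, adjusted p = 2.09e-04), with 1400 to 2070 normalized counts in Mutant and 855 to 933 in Wild type libraries, as did the inhibitor gene *Deptor* (0.69). *Telo2* (-0.46) and *Tti1* (-0.49), which help mTOR to fold and assemble, fell. *Rptor* (0.19) and *Rictor* (0.08), which define complexes 1 and 2, were not called. With *Tsc2* itself set aside, 1 of 6 TSC and RHEB genes rose and 1 fell (median 0.07). *Rhebl1*, a relative of RHEB, fell past 2-fold (-1.08, adjusted p = 7.18e-05), *Ddit4*, an inhibitor of mTOR complex 1, rose by 0.27 (adjusted p = 0.0194, and 0.0519 without Mutant 2), and *Rheb* (0.09) was not called. Of 25 genes of amino acid sensing 2 rose and 6 fell (median -0.14). *Sesn1* (-0.84), a leucine sensor family member, fell. *Rraga* (0.26) and *Castor2* (0.33) rose, but *Rraga* was not called without Wild type 3 (0.24, adjusted p = 0.0507), nor *Castor2* with upper quartile factors (0.27, adjusted p = 0.0512). *Rragb* was called lower (-1.69, adjusted p = 0.0388) on counts too low to carry it, at most 14 normalized counts in Mutant and 33 in Wild type libraries. It was not called without Mutant 2 or 4 or without Wild type 1, 2 or 3 (adjusted p from 0.0604 to 0.0951).

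Downstream of mTOR complex 1 most genes moved, with 9 of 18 higher and 6 lower (83.3% called, against 44.4% of all genes), and with a median of 0.23. *Eif4ebp1*, a repressor of translation that mTOR inactivates, had the largest rise (2.28, SE 0.16, adjusted p = 6.35e-06), from 289 to 371 normalized counts in Wild type to 1242 to 1988 in Mutant libraries. Its target, the cap-binding factor *Eif4e* (0.62), and the ribosomal protein gene *Rps6* (0.54) rose. *Tfeb* (-0.76, adjusted p = 2.02e-04), the lysosomal gene activator that mTOR keeps in the cytoplasm, and the autophagy kinase gene *Ulk1* (-0.43) fell. The list holds activators and repressors of translation side by side, and its genes were not chosen for a common direction.

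Of 19 FOXO target genes tested 3 rose and 6 fell (median -0.06). *Angpt2*, a destabilising ligand of the TIE2 receptor, rose most (2.03, adjusted p = 3.86e-05), with *Bcl6* (1.09) and *Bcl2l11* (0.54). The shear-responsive factors *Klf2* (-1.72, adjusted p = 4.38e-05) and *Klf4* (-1.40), the catalase gene *Cat* (-0.62) and *Txnip* (-0.49) fell. Several of these genes respond to other pathways too, so their levels do not report on FOXO alone.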

How the data were processed

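Brain EC libraries of 4 Mutant and 4 Wild type pups were grouped by their titles. The authors used Trimmomatic for trimming and STAR for mapping to GRCm38, and deposited raw counts per gene; the counting program, the annotation release and the use of strand are not given in the sources used here. A second file deposited by the authors holds a signal for 16889 genes, which is counts divided by DESeq2 size factors, of which 100% came out as whole reads within 0.01, equal to the counts. The raw counts were tested in R 4.3.3 with edgeR 4.0.16 (TMM, filterByExpr with a minimum count of 10, glmQLFit and glmQLFTest, condition only, two-sided), with Benjamini-Hochberg adjustment over 16887 genes. Standard errors are the log2 fold change over the square root of F. Called means adjusted p under 0.05. Marker sums were compared by exact permutation. Same-group libraries differed by more than sampling noise (chi-square per degree of freedom 6.70 to 37.1), so each counted as 1 replicate, and p-values measure the spread between pups. Symbols came from GENCODE vM21 (48970 of 49315 identifiers) and promoters from RefSeq (GRCm38.p6). DESeq2 1.42.0, limma 3.58.1 (voom), other factors and filters, blocks and left-out libraries were alternatives. The recovered reads, the libraries rich in neuron or microglia markers left out together and the astrocyte list without *Gja1* were added after seeing the data. The members and the lists were chosen with earlier results of these data known. Genes named are the members, the 3 most similar genes of each member called and, of each list, every gene called past 2-fold and up to 2 of smallest adjusted p in each direction; any other gene was picked with its value known. The fit was first tested on simulated counts. There it called 70 of 100 genes changed 2-fold and 12 of 100 changed 1.41-fold. Far fewer genes changed there than were called here, so these shares do not carry over directly. A gene not called may still have a small change. Some genes of the lists, and shares that need one of them, are not reported here.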

Additional observations from a re-analysis of the deposited data

Results flagged for a closer look

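In the values by library of the core genes, their shares and the genes named from the lists, the gap of the highest or lowest of 4 libraries was compared with Dixon's 95% critical value, and 12 of 156 groups of values passed. Chance alone passes about 1 in 20. No core gene's own counts were among them. In Wild type libraries the lowest *Pik3r3* share of the regulatory subunits was 51.4%, with the others at 56.9% to 58.0%. In normalized counts, the lowest Mutant *Pik3r2* value was 537 (others 624 to 631). *Pik3c2a* had a highest Wild type value of 4210 (others 3500 to 3567), and *Igf1r* one of 19218 (others 17927 to 18116). *Telo2* had a lowest Wild type value of 446 (others 501 to 505), and *Sesn1* one of 1778 (others 2077 to 2123). *Rhebl1* had a lowest Mutant value of 195 (others 259 to 270) and a lowest Wild type value of 482 (others 530 to 537). *Foxo1* had a highest Wild type value of 6087 (others 4246 to 4411), and *Angpt2* one of 5630 (others 3072 to 3509). *Slc3a2* had a lowest Mutant value of 18613 (others 21374 to 21819) and a lowest Wild type value of 32236 (others 35330 to 35731). Wild type 4 gave the Wild type values of *Pik3c2a*, *Igf1r*, *Telo2*, *Rhebl1*, *Foxo1* and *Angpt2*, and Wild type 3 those of *Sesn1*, *Slc3a2* and the *Pik3r3* share. Without Wild type 4 *Pik3ca*, *Pik3r1*, *Akt1*, *Pik3r3* and *Tsc2* were still called, as they were without Wild type 3.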

How the results depend on the processing

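*Pik3r1*, *Pik3r3*, *Akt1* and *Tsc2* kept their direction and call, and *Akt2* stayed uncalled, under all 19 alternatives to their fit. *Pik3ca* kept its call under 16 of 19: it was 0.24 (adjusted p = 0.0945) without the 2 Wild type libraries richest in neuron markers, 0.19 (0.0641) with upper quartile factors, and 0.23 to 0.31 with single libraries left out, its call lost without Wild type 2 (0.0584). *Pik3cb* passed the test with upper quartile factors (-0.21, adjusted p = 0.0313), and *Mtor* changed sign without Wild type 1, with a range of -0.073 to 0.012 over single libraries left out. Requiring a change over 2-fold left 0 members higher and 0 lower. Without the 2 Wild type libraries richest in neuron markers, the counts fell to 21 pathway genes higher, 24 lower and 2326 of all genes lower, with 4947 of all genes called in place of 7504, in a fit that rests on 2 Wild type libraries. With the mean of log2 CPM in place of summed counts, the markers of astrocytes (-0.44), microglia (0.029), and pericytes and smooth muscle (0.19) changed sign, and those of lymphocytes and neutrophils fell (-1.09, exact permutation p = 0.0286). The astrocyte sum without *Gja1* gave -0.41. With the replicate number as a block, 8162 genes were called, and the members kept their calls (*Pik3r1* 0.66, *Pik3ca* 0.26, *Akt1* 0.44, *Pik3r3* -0.56, *Tsc2* -0.37). With the shared leading digits of the sample descriptions as a block, 8610 were called, against 7504 with neither, and the members kept their calls (*Pik3ca* adjusted p = 0.0048). Pups were matched within litters, but no source says that the digits or the replicate numbers mark litters. Same-numbered libraries correlated in their deviations at 0.20, 0.21, 0.29 and 0.02, and not every library correlated best with its own number, so the numbers were not treated as pairs. DESeq2 called 7830 genes and the fit on recovered reads 7555. Of the values for single named genes and lists, 1364 kept their direction and side of the threshold or, for counts, stayed within 1.5 times. The call was lost for 34, and 26 counts moved by over 1.5 times or to or from 0. None of these values changed sign. Every member had at least 1133 normalized counts in every library.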

Other observations

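Genes driven by ATF4, a transcription factor whose synthesis mTOR complex 1 promotes, moved in both directions, with 7 of 15 higher and 2 lower, against 21.5% and 22.9% of all genes tested. Their median log2 fold change was 0.27 (Mutant over Wild type). The enzymes of serine, one-carbon and asparagine synthesis that were called were higher, *Mthfd2* (1.38, edgeR adjusted p = 4.94e-05), *Asns* (1.12), *Psat1* (0.76) and *Shmt2* (0.57). *Atf4* itself (0.05), *Phgdh* (-0.19) and *Psph* (-0.07) were not called. The cystine transporter gene *Slc7a11* was higher in each Mutant library (1358 to 5609 normalized counts) than in each Wild type library (218 to 1052), with a log2 fold change of 2.30 (SE 0.58, adjusted p = 0.00869). The paired transporter genes *Slc7a5* (-1.04, adjusted p = 0.00165) and *Slc3a2* (-0.74, adjusted p = 5.92e-05), which carry large neutral amino acids across the blood-brain barrier, were lower, at 16400 to 34261 against 50750 to 61218 and 18613 to 21819 against 32236 to 35731 normalized counts.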
